A study of Mus musculus with 11 samples.

Results

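A set of 40 skeletal muscle genes was followed through RNA-Seq libraries of granule cell progenitors (GCps), the proliferating precursors of cerebellar granule neurons. The set holds genes for sarcomere proteins, excitation-contraction coupling, the muscle side of the neuromuscular junction and the myogenic transcription factors, 40 of the 38924 genes counted in the files. It was put together by name and because its summed level was higher in cko than in control GCps in these same libraries, so the cko against control values of its members below are a description of what was selected and carry no test. Of the 40 genes, 33 passed the filter on low counts and 7 did not (Myh1, Myh2, Myh4, Chrnd, Chrng, Myf5 and Myf6). Among the 33, Tnnc2, Mybph, Ckm and Atp2a1 (4 genes) passed it through the cko libraries alone.

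The study asked what loss of the chromatin remodeler CHD7 does to the granule cell lineage. GCps were purified at postnatal day 7 (P7) from cko mice (Math1-Cre Chd7flox/flox) and from control mice, which are Chd7flox/+ by the sample labels and the methods but Cre-negative Chd7f/f by the extraction notes. Both groups were on a C57Bl/6J background, and each group had 2 libraries. Math1-Cre drives recombination in the granule lineage and spares the most posterior lobules. Lobules IX and X were cut away, and the cerebella of 1 genotype were then pooled, dissociated with papain and run over a Percoll gradient. The 2 cko libraries differ in the sex of their animals (below) and so come from different animals, while nothing says so for the control libraries, whose spread may be technical. The p-values measure the spread between these 4 libraries. In bulk RNA, more cells of a type and more RNA per cell cannot be told apart.

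Skeletal muscle fibers contract through sarcomeres, in which thick filaments of myosin pull on thin filaments of actin that troponin and tropomyosin open when calcium rises. The calcium comes from the sarcoplasmic reticulum, through a receptor gated by a voltage sensor in the surface membrane. Muscle precursors commit and differentiate under the basic helix-loop-helix factors Myf5, MyoD, myogenin and MRF4 (Myf6), and young fibers use embryonic and perinatal isoforms of several sarcomere proteins before adult fast or slow isoforms replace them. MyoD and M-cadherin are muscle proteins that have also been described in mouse cerebellar granule cells.

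Library totals ran between 61836588 and 77346481 counts. Across all 16436 genes tested with edgeR's quasi-likelihood test, 260 passed an adjusted p of 0.05, 133 higher and 127 lower in cko. The granule markers Zic1 and Neurod1 were abundant in all 4 libraries, with Zic1 between 1485 and 1707 CPM (counts scaled to a common library size). Chd7 itself stood at 392 and 355 CPM in cko, against 322 and 319 CPM in control, a gene-level count that does not check a deletion limited to the floxed exons. The library cko 1 stood apart from the others by sex: Xist was at 793 CPM and Ddx3y at 0 in cko 1, against 0.114 to 0.548 CPM of Xist and 63.7 to 69.1 CPM of Ddx3y in cko 2 and both control libraries. Results are therefore also given without cko 1.

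Summed over the 40 genes, skeletal muscle transcripts reached 86.1 and 143 CPM in cko, against 37.1 and 34.4 CPM in control, or 115 ± 40.3 and 35.8 ± 1.86 CPM (SD, n = 2 each). The whole set amounted to 0.00903% and 0.0141% of all counts in cko, against 0.00367% and 0.00336% in control. It was thus a trace signal in every library, present in control GCps too. Both cko libraries lay above both control libraries for the sum, and cko 2 lay above cko 1. The median log2 fold change of the 33 tested members was 1.89, against a median near 0 over all tested genes. Of the 33, 9 passed the adjusted p of 0.05, all higher in cko (Myh3, Tnnt3, Tnni1, Tnnt1, Actn2, Tpm2, Ckm, Atp2a1 and Myog), where 0.809% of all tested genes were called higher and 0.773% were called lower. Since this contrast chose the set, nothing is read from that count. For 29 of the 33, both cko libraries lay above both control libraries, as did 22.7% of all tested genes. The count of called members was 17 without cko 1, 15 without cko 2, 9 without control 1 and 1 without control 2, where the lone library of a group is assumed to vary as the other group does.

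**Figure D1:**
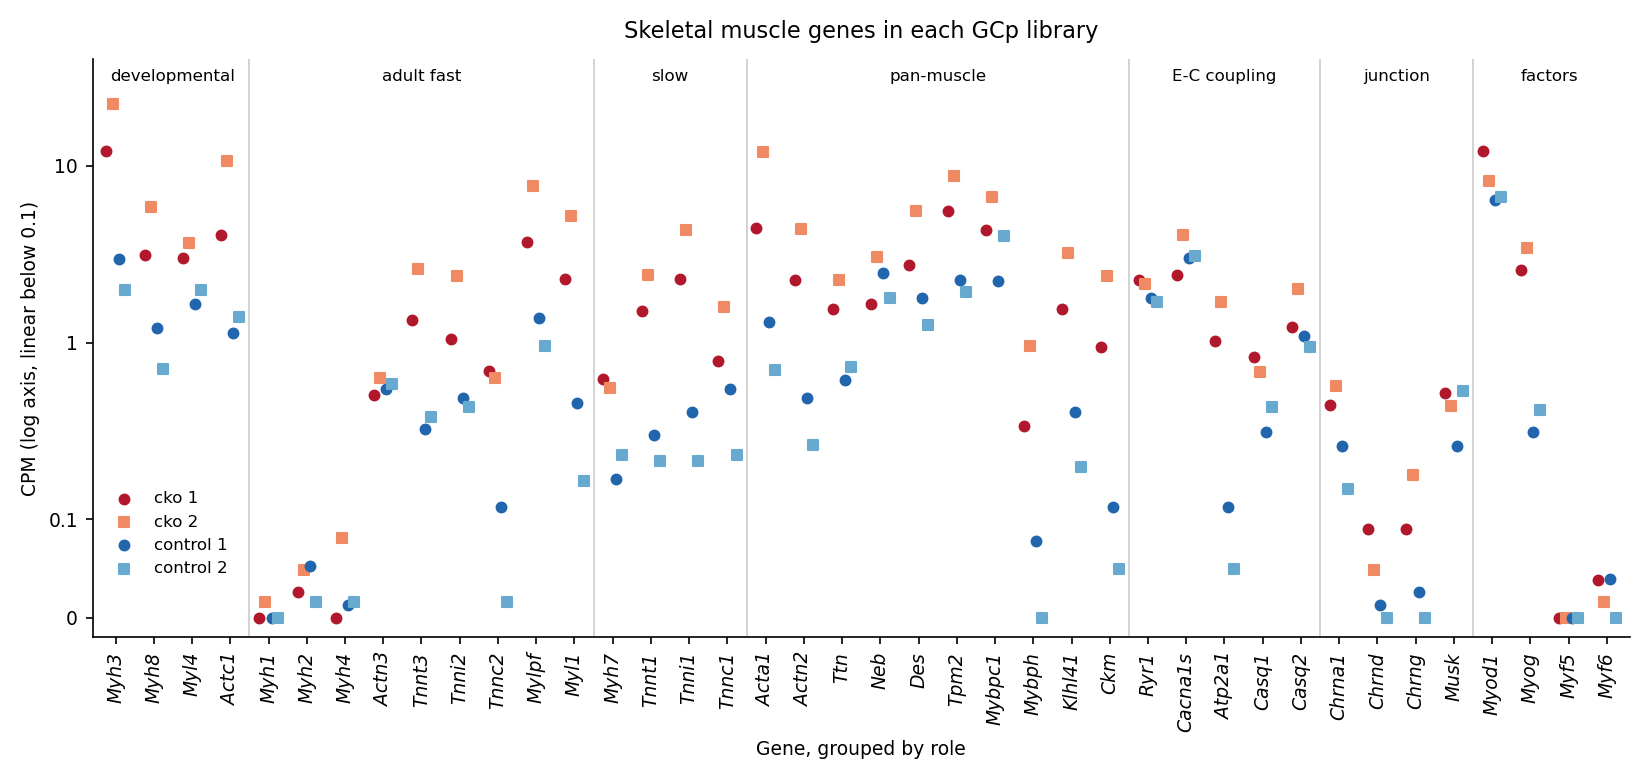
CPM of each of the 40 skeletal muscle genes in each GCp library (y axis, logarithmic above 0.1 CPM and linear below), grouped by role along the x axis; red and orange points are cko 1 and cko 2, dark and light blue points control 1 and control 2. Most sarcomere genes stand higher in both cko libraries, with cko 2 on top, while Neb, Cacna1s, Actn3 and Musk overlap between the groups and Myh1, Myh2, Myh4, Myf5 and Myf6 lie at or close to 0.

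The 4 developmental sarcomere isoforms were each higher in both cko libraries, their sum reaching 22.3 and 42.4 CPM in cko, against 6.96 and 6.05 CPM in control. Myh3, the embryonic myosin heavy chain (ENSMUSG00000020908), had 12.1 and 22.3 CPM in cko 1 and cko 2, against 2.98 and 1.97 CPM in control 1 and control 2, a log2 fold change of 2.79 (SE 0.37). Myh8, the perinatal heavy chain, had 3.14 and 5.82 CPM in cko, against 1.20 and 0.713 CPM in control (log2 fold change 2.21, SE 0.40). The groups did not overlap for either gene, and the lower cko library was several times above the higher control one for Myh3. Actc1, the cardiac actin that embryonic skeletal muscle also uses, had 4.06 and 10.6 CPM in cko, against 1.14 and 1.39 CPM in control (log2 fold change 2.53, SE 0.50), with cko 2 at 2.61 times cko 1. Myl4, an embryonic and atrial essential light chain, differed least, with 3.01 and 3.66 CPM in cko, against 1.64 and 1.97 CPM in control (log2 fold change 0.88, SE 0.23).

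Adult fast isoforms were of 2 kinds. The heavy chains of adult fast fibers were close to absent: Myh1 had 0 and 1 counts in cko and 0 in both control libraries, Myh2 had 2 and 3 counts in cko, against 4 and 1 in control, and Myh4 had 0 and 5 counts in cko, against 1 and 1 in control. A count of 0 in a library allows up to 3 counts, or 0.0388 to 0.0485 CPM at these depths, so a difference was not detectable at this depth. Fast light chains and fast troponins, which developing muscle also makes, were above that floor in every library, except Tnnc2 at 1 count in control 2. Myl1, a fast essential light chain, had 2.30 and 5.17 CPM in cko, against 0.457 and 0.166 CPM in control (log2 fold change 3.54, SE 0.62), and 11.7% of its 50-base windows recur in the pseudogene Mylf-ps. Mylpf, the fast regulatory light chain, had 3.71 and 7.66 CPM in cko, against 1.37 and 0.961 CPM in control (log2 fold change 2.28, SE 0.40). Both light chains were separate between the groups and higher in cko 2 than in cko 1. Tnnt3, fast troponin T, had 1.35 and 2.62 CPM in cko, against 0.326 and 0.381 CPM in control (log2 fold change 2.48, SE 0.40). Tnni2, fast troponin I, had 1.05 and 2.37 CPM in cko, against 0.483 and 0.431 CPM in control (log2 fold change 1.89, SE 0.44). Neither troponin overlapped between the groups. Tnnc2, fast troponin C, had 53 and 39 counts in cko, against 9 and 1 in control, but 74.0% of its exonic bases lie opposite Ube2c and none of the sources used here says whether reads were counted by strand, so its reads may be misassigned. Actn3, the alpha-actinin of fast fibers, was level, with 0.506 and 0.634 CPM in cko, against 0.548 and 0.580 CPM in control, and the groups overlapped.

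Slow isoforms were present beside the fast ones. Tnni1, slow troponin I, had 2.30 and 4.31 CPM in cko, against 0.405 and 0.215 CPM in control (log2 fold change 3.38, SE 0.45). Tnnt1, slow troponin T, had 1.52 and 2.41 CPM in cko, against 0.300 and 0.215 CPM in control (log2 fold change 2.90, SE 0.37). The groups did not overlap for either gene, and cko 2 was on top for both. Tnnc1, the slow and cardiac troponin C, had 0.791 and 1.59 CPM in cko, against 0.548 and 0.232 CPM in control (log2 fold change 1.58, SE 0.52), where cko 1 lay nearer to control 1 than to cko 2. Myh7, the slow heavy chain, had 48 and 34 counts in cko, against 13 and 14 in control. It was a minor component, and 15.6% of the 50-base windows of its transcripts also occur in other genes, Myh6 first among them.

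Of the 10 sarcomere and filament genes that skeletal fibers share, 9 were separate between the groups, all higher in cko. Over all tested genes, 22.7% had both cko libraries above both control libraries, and this contrast chose the members. Acta1, skeletal alpha-actin of the thin filament, had 4.46 and 12.0 CPM in cko, against 1.31 and 0.696 CPM in control (log2 fold change 3.02, SE 0.62). Actn2, the alpha-actinin of the Z-disc, had 2.24 and 4.36 CPM in cko, against 0.483 and 0.265 CPM in control (log2 fold change 3.11, SE 0.45). Tpm2, beta-tropomyosin, had 5.51 and 8.70 CPM in cko, against 2.26 and 1.94 CPM in control (log2 fold change 1.76, SE 0.27). In all 3 the groups were separate, and Acta1 varied most within cko, at 2.69 times in cko 2 relative to cko 1. Ckm, the muscle creatine kinase that regenerates ATP, had 73 and 146 counts in cko, against 9 and 3 in control, the largest log2 fold change of the called members at 4.23 (SE 0.64), with 15.5% of its exonic bases opposite another gene. Klhl41, a kelch protein that stabilizes nebulin, had 1.54 and 3.20 CPM in cko, against 0.405 and 0.199 CPM in control (log2 fold change 2.94, SE 0.50). Mybph, a myosin binding protein of developing and fast muscle, had 26 and 59 counts in cko, against 6 and 0 in control, with 49.9% of its exonic bases opposite Adora1. These genes were at very low counts in control, so their fold changes rest on few reads.

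Of the remaining genes of this group, 3 were separate between the groups and Neb was not. Ttn, the giant spring titin, had 1.54 and 2.26 CPM in cko, against 0.614 and 0.729 CPM in control (log2 fold change 1.50, SE 0.30). Des, the intermediate filament desmin, which smooth muscle and pericytes also make, had 2.75 and 5.56 CPM in cko, against 1.78 and 1.26 CPM in control (log2 fold change 1.44, SE 0.38). For both, every cko library lay above every control library. Mybpc1, slow myosin binding protein C, had 4.32 and 6.68 CPM in cko, against 2.22 and 4.03 CPM in control (log2 fold change 0.82, SE 0.35), and cko 1 lay just above control 2. Neb, the thin filament ruler nebulin, had 1.65 and 3.06 CPM in cko, against 2.48 and 1.79 CPM in control, and the groups overlapped fully.

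Among excitation-contraction genes, 1 stood out. Atp2a1, the SERCA1 pump that returns calcium to the sarcoplasmic reticulum of fast fibers, had 79 and 104 counts in cko, against 9 and 3 in control (log2 fold change 3.94, SE 0.50), with 21.9% of its exonic bases opposite Rabep2. The 2 channels of the calcium release unit differed far less in size. Ryr1, the calcium release channel, had 2.26 and 2.13 CPM in cko, against 1.79 and 1.69 CPM in control (log2 fold change 0.33, SE 0.22), a small difference with the groups separate. Cacna1s, the voltage sensor, had 2.40 and 4.06 CPM in cko, against 2.99 and 3.08 CPM in control (log2 fold change 0.09, SE 0.28), and both control libraries lay between the 2 cko libraries. Of its exonic bases, 20.0% lie opposite another gene. Reads from both genes were thus present in control GCps at close to the cko level. The calcium-binding calsequestrins lay between: Casq1, the fast form, had 0.830 and 0.683 CPM in cko, against 0.313 and 0.431 CPM in control (log2 fold change 1.03, SE 0.34). Casq2, the slow and cardiac form, had 1.22 and 2.02 CPM in cko, against 1.08 and 0.945 CPM in control (log2 fold change 0.67, SE 0.32). Both were separate between the groups, Casq2 narrowly.

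Neuromuscular junction members were low throughout. Chrna1, the alpha subunit of the muscle acetylcholine receptor, had 34 and 35 counts in cko, against 20 and 9 in control (log2 fold change 1.27, SE 0.43). Chrng, the gamma subunit of the fetal receptor, had 7 and 11 counts in cko, against 2 and 0 in control. Chrnd, the delta subunit, had 7 and 3 counts in cko, against 1 and 0 in control. The 3 receptor subunits were each separate between the groups, on few reads, and Chrng and Chrnd did not pass the filter. Both cko libraries lay above both control libraries for 22.7% of all tested genes. Musk, the kinase that clusters these receptors, had 40 and 27 counts in cko, against 20 and 32 in control, and the groups overlapped.

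The myogenic factors parted from one another. Myog, which encodes myogenin, the factor of terminal muscle differentiation (ENSMUSG00000026459), had 2.57 and 3.43 CPM in cko, against 0.313 and 0.414 CPM in control (log2 fold change 3.04, SE 0.30). Its mean was 3.00 ± 0.610 CPM in cko and 0.364 ± 0.0713 CPM in control (SD, n = 2 each), or 8.24-fold higher, and cko 1 and cko 2 were closer to each other than for most sarcomere genes. Myod1, which encodes MyoD, was the most abundant factor, with 12.1 and 8.23 CPM in cko, against 6.37 and 6.68 CPM in control (log2 fold change 0.64, SE 0.21). Myod1 was separate between the groups and present in all 4 libraries, and like 5 other tested members, and unlike the other 27, it was higher in cko 1 than in cko 2. Myf5, the earliest factor of the family, had 0 counts in every library, which allows up to 0.0388 to 0.0485 CPM in each. Myf6 had 3 and 1 counts in cko, against 3 and 0 in control.

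**Figure D2:**
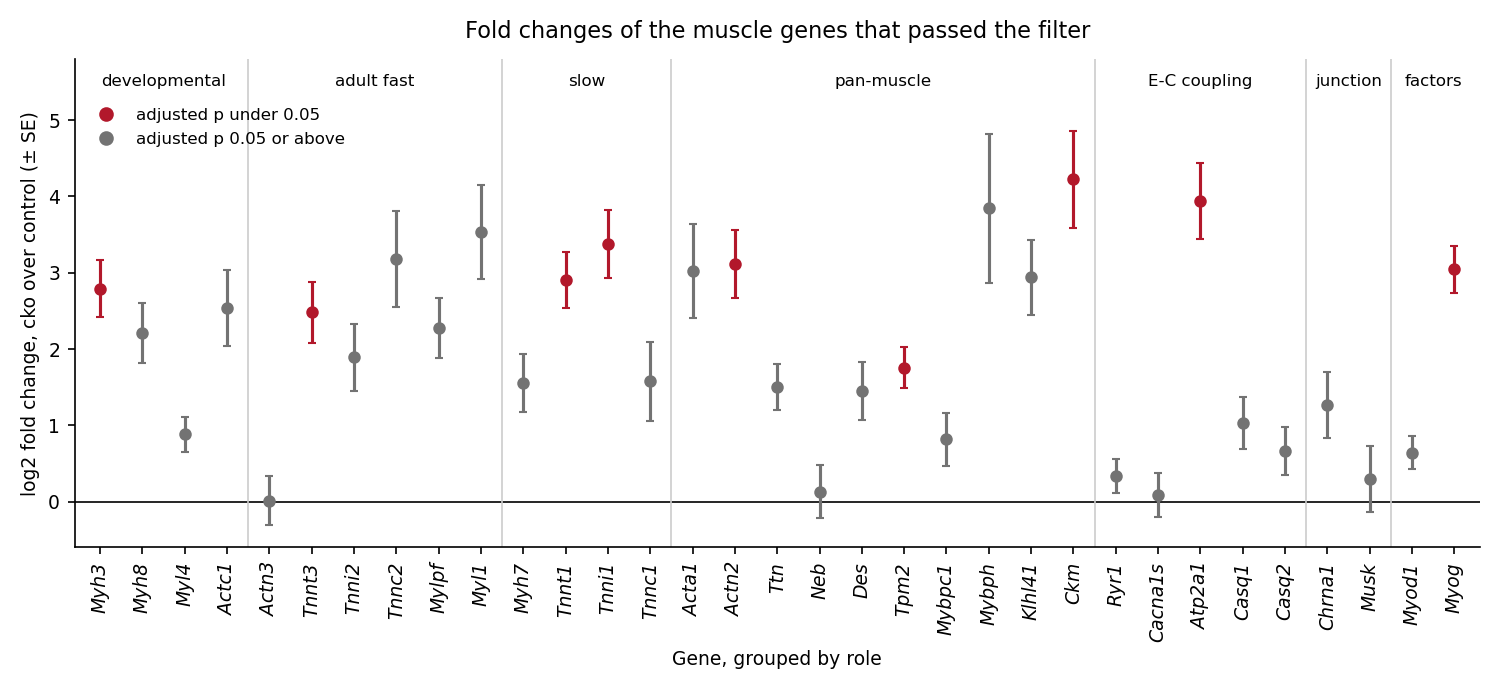
Log2 fold change of cko over control with its standard error (y axis) for the 33 skeletal muscle genes that passed the filter, grouped by role (x axis); red points passed an adjusted p of 0.05 and grey points did not. Ckm, Atp2a1 and Mybph lie near 4, and Actn3, Neb, Cacna1s, Musk and Ryr1 lie between 0.01 and 0.33.

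Set per kilobase of exonic length, so that genes can be compared, the order of levels differed between the groups. In cko the mean levels were highest for Myod1 at 5.47, Acta1 at 5.35, Mylpf at 5.35, Actc1 at 4.53 and Myh3 at 2.84 CPM per kb. In control Myod1 led at 3.51 CPM per kb, followed by Mylpf at 1.10, Actc1 at 0.781, Tpm2 at 0.721 and Mybpc1 at 0.690 CPM per kb. The cko order differed between the libraries: Myod1 had 6.52 CPM per kb in cko 1 and 4.42 in cko 2, Acta1 had 2.90 and 7.80, Mylpf had 3.49 and 7.21, and Actc1 had 2.51 and 6.54. Myod1 thus led in cko 1 and in both control libraries, and lay below these 3 genes in cko 2. Myod1 made up 14.1% and 5.75% of the summed CPM of the 40 genes in cko, against 17.2% and 19.4% in control. The first 4 of the cko order lie closer together than cko 1 and cko 2 do for Acta1, Mylpf and Actc1.

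The make-up of the muscle protein families was read from shares of counts within each library, with exact Clopper-Pearson 95% intervals that cover counting error only. These shares are not scaled for exonic length, so a longer gene holds more of the counts. Myh3 held 76.2% (73.7 to 78.5) and 77.4% (75.4 to 79.3) of the counts of the 6 sarcomeric heavy chains in cko 1 and cko 2, against 67.5% (62.2 to 72.4) and 66.9% (59.4 to 73.7) in control 1 and control 2. Myh8 held a further 19.8% and 20.2% in cko, against 27.2% and 24.2% in control. Embryonic and perinatal chains thus made up nearly all heavy chain reads in each library of both groups. The genes Myh3, Myh2, Myh1, Myh4 and Myh8 lie in this order on chromosome 11, and the reads came from both ends of the row. These chains share sequence, with 4.76% of the 50-base windows of Myh3 and 12.1% of those of Myh8 also found in other genes, and up to 25.4% for Myh1, so reads can be lost or split among them.

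Slow Tnni1 held 68.6% (62.6 to 74.2) and 64.5% (59.6 to 69.1) of troponin I counts in cko, against 45.6% (33.5 to 58.1) and 33.3% (19.1 to 50.2) in control. For troponin I the intervals of both cko libraries lay above those of both control libraries. Scaled for exonic length, the Tnni1 share was 47.6% and 43.0% in cko, against 25.8% and 17.2% in control, so that fast Tnni2 led in each library. Slow Tnnt1 held 52.9% and 47.9% of troponin T counts in cko, against 47.9% and 36.1% in control, with overlapping intervals. Its length-scaled share was 44.7% and 39.8% in cko, against 39.8% and 28.9% in control. Tnnc1 held 53.5% and 71.5% of troponin C counts in cko, against 82.4% and 93.3% in control, the other way round from troponin I and with the doubt over Tnnc2 noted above. The length-scaled values were 46.9% and 65.9% in cko, against 78.2% and 91.5% in control. Acta1 held 52.4% and 53.1% of the counts of the 2 sarcomeric actins in cko, against 53.5% and 33.3% (25.2 to 42.3) in control, so that Actc1 led in control 2. Myog held 17.4% (15.3 to 19.8) and 29.4% (26.1 to 32.9) of the counts of the 4 myogenic factors in cko, against 4.66% (3.01 to 6.85) and 5.84% (3.82 to 8.50) in control. The intervals of the Myog share in both cko libraries lay above those in both control libraries, whereas the shares of the sarcomeric actins overlapped.

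**Figure D3:**
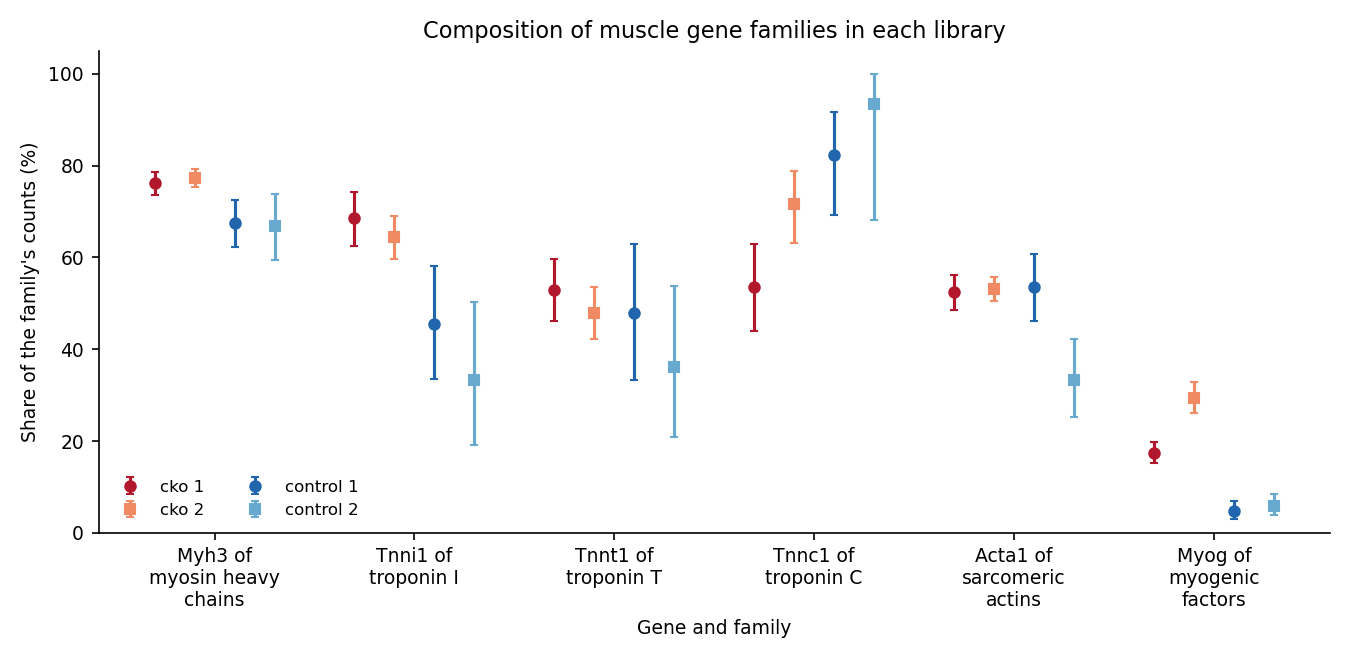
Share of a family's counts held by 1 member in each library (y axis, %) with exact 95% intervals, for 6 families (x axis); red and orange are cko 1 and cko 2, dark and light blue control 1 and control 2. Myh3 holds between 66.9% and 77.4% of heavy chain counts in all 4 libraries, and the Myog share is 17.4% and 29.4% in cko, against 4.66% and 5.84% in control.

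The members also differed between libraries of 1 genotype. The selection did not compare these libraries with each other, but it used the summed cko level, which was highest in cko 2. The counts below are therefore not independent of the selection. Of the 33 tested members, 27 were higher in cko 2 than in cko 1 and 22 were over 1.5-fold higher, where 49.3% and 5.34% of all tested genes were. The median ratio of cko 2 to cko 1 was 1.69 for the members, against 0.997 for all tested genes. By role, all 4 developmental and all 10 pan-muscle genes were higher in cko 2, with median ratios of 1.85 and 1.98. The exceptions were Tnnc2, Myh7, Ryr1, Casq1, Musk and Myod1, with ratios between 0.678 and 0.944. Between the control libraries, 21 of 33 members were higher in control 1 than in control 2, where 50.1% of all tested genes were. Among the 12 that were not were the sarcomere genes Myl4, Actc1, Actn3, Tnnt3, Myh7, Ttn and Mybpc1. The pattern between replicates was thus common to most members within cko and mixed within control. Without cko 1 the median log2 fold change of the 33 members was 2.38, and without cko 2 it was 1.64.

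**Figure D4:**
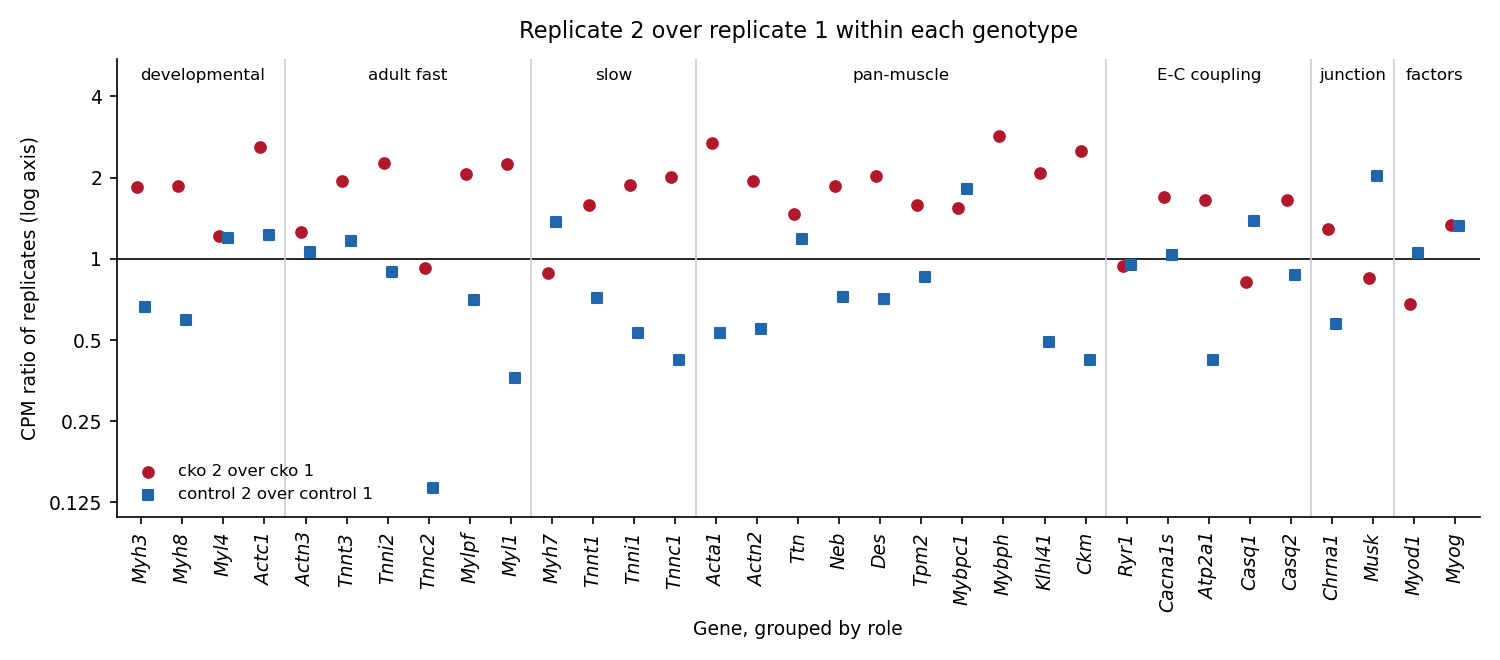
Ratio of CPM in replicate 2 to replicate 1 within cko (red points) and within control (blue squares) on a logarithmic y axis, for the 33 tested genes grouped by role (x axis); the line marks a ratio of 1, and Mybph has no control square because control 2 had 0 counts. Most red points lie between 1.5 and 3, with Myod1 at 0.678.

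Promoter sequence was looked at because most members moved the same way between the cko libraries, a pattern not independent of the selection. The genes were also picked by name as muscle genes, so the motif shares below are not tied to that movement. The RefSeq table (GRCm38.p6) held promoters for 33 of the 40 genes, and the 250 bases before the start of each were searched on both strands for the E-box CANNTG, its form CAGCTG (a subset of the first), TATAAA, a MEF2 site and a CArG box (the binding motif of serum response factor). CAGCTG was found for 17 of the 33 genes, or 51.5%, against 13.0% of all promoters of this length. CANNTG was found for 81.8% of the genes against 66.2% of promoters, a MEF2 site for 18.2% against 2.92%, a CArG box for 9.09% against 1.47%, and TATAAA for 24.2% against 12.4%. These shares describe the letters in a short window and say nothing of binding. The genes with a full match to the MEF2 pattern were Casq2, Klhl41, Myh1, Myh4, Myh8 and Ttn. Those with a CArG box were Acta1, Actc1 and Myh4. Of the genes with either motif, Myh1 and Myh4 did not pass the filter and could not be called. The others passed it and were not called by edgeR, while DESeq2 called Klhl41, Myh8, Ttn, Acta1 and Actc1 but not Casq2. The 7 upstream stretches below are examples. Myog and Myh3 were called by edgeR. Myh8, Acta1, Actc1 and Klhl41 were not, although DESeq2 called them, and Cacna1s was level. They are written from 5′ to 3′ on the gene's strand. Capitals mark every match to the E-box, MEF2 and CArG patterns searched. A stretch that departs from the 10-base MEF2 or CArG pattern at any base stays in lower case. Such a stretch is ctatatttat in Myog, which differs only at its last base from the Klhl41 match CTATATTTAG. Myog is thus not counted as having a MEF2 site, which does not say that it lacks one.
Myog (chr1:134289754-134290003, plus strand): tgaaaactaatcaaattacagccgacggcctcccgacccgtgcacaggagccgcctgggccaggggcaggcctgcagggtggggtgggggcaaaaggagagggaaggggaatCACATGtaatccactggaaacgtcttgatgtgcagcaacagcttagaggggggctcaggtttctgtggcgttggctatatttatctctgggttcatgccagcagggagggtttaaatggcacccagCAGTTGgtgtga
Myh3 (chr11:67078050-67078299, plus strand): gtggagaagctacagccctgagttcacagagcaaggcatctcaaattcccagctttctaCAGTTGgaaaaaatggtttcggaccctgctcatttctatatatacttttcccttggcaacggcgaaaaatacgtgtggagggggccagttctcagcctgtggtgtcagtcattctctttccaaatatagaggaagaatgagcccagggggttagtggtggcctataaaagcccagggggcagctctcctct
Myh8 (chr11:67276874-67277123, plus strand): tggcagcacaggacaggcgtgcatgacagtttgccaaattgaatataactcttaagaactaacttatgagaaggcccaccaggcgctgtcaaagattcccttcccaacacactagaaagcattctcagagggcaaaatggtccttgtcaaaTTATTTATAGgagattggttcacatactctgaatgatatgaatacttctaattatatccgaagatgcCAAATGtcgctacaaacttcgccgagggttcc
Acta1 (chr8:123894776-123895025, minus strand): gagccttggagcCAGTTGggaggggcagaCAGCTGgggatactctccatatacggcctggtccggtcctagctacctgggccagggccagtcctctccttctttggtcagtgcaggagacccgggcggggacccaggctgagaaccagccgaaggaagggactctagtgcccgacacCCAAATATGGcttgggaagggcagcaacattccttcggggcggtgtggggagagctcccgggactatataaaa
Actc1 (chr2:114052876-114053125, minus strand): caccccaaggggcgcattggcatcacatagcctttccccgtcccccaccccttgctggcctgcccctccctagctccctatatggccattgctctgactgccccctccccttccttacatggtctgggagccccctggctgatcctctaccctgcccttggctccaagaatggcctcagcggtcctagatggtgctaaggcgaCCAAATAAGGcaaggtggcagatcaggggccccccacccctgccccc
Klhl41 (chr2:69669870-69670119, plus strand): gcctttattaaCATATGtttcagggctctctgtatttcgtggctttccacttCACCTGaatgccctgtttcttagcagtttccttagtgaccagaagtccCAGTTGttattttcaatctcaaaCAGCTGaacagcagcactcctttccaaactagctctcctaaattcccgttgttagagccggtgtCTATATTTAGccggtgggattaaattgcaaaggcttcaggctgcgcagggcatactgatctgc
Cacna1s (chr1:136052561-136052810, plus strand): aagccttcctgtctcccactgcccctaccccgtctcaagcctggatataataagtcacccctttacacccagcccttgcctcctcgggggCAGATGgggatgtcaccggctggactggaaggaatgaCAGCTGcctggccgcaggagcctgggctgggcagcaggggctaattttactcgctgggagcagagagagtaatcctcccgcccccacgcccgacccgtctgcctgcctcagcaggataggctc
In these stretches Acta1 and Actc1 each have a CArG box, starting 73 and 47 bases before the start. Klhl41 has 4 E-boxes and a MEF2 site, and Myh8 a MEF2 site 99 bases before its start. Myog has 2 E-boxes, at 138 and 12 bases, and the near match to the MEF2 pattern given above. Cacna1s, whose groups overlapped, also holds a CAGCTG, 123 bases before its start.

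Outside the set, 79 further skeletal muscle genes in 6 lists were counted with the same fit, and here the contrast had not chosen the genes, although the lists were drawn up with earlier results known. Of these, 57 passed the filter and 6 were called with an edgeR adjusted p under 0.05, all higher in cko, where 0.809% of all tested genes were called higher. Of the 57, 15 passed the filter through the cko libraries alone, and 5 of the 6 called genes are among them (Tnnt2, Myom2, Synpo2l, Myom3 and Cox6a2), so they could only have come out higher, and these counts and medians support nothing about the lists. Cdh15 is the called gene that passed it in control too. The median log2 fold change of the 57 was 0.57. The count was 11 without cko 1, 8 without cko 2 and 6 without control 1, and it was 0 without control 2, where 18 had an unadjusted p under 0.05.

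Other sarcomere and Z-disc genes gave 4 of the 6 calls, among 19 tested, with a median log2 fold change of 1.69; 9 of the 19, the 4 called ones included, had passed the filter through cko alone. Tnnt2, the cardiac troponin T that embryonic skeletal muscle also makes, had 87 and 119 counts in cko, against 11 and 5 in control (log2 fold change 3.70, SE 0.46, edgeR adjusted p = 0.0231). Myom2, an M-band protein, had 55 and 90 counts in cko, against 6 and 2 in control (log2 fold change 4.18, SE 0.59, edgeR adjusted p = 0.0338). In both genes nearly all reads came from the cko libraries. Synpo2l, a Z-disc protein, had 52 and 63 counts in cko, against 10 and 7 in control (log2 fold change 2.75, SE 0.42, edgeR adjusted p = 0.0364). Myom3, another M-band protein, had 48 and 58 counts in cko, against 9 and 5 in control (log2 fold change 2.92, SE 0.45, edgeR adjusted p = 0.0370). In each of the 4 the lower cko library had several times the counts of the higher control library. The most abundant genes of the list were Tpm1 and Flnc. Tpm1 (alpha-tropomyosin) had 85.1 and 92.1 CPM in cko, against 99.9 and 94.1 CPM in control, and Flnc (filamin C) had 22.8 and 16.5 CPM in cko, against 10.8 and 12.3 CPM in control (log2 fold change 0.77, SE 0.18). Neither passed the test, although the groups were separate for both genes, with Flnc higher and Tpm1 lower in cko.

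In the satellite cell list, of genes that mark muscle stem cells, 1 of 4 tested genes was called. Cdh15, which encodes M-cadherin, had 14.6 and 10.7 CPM in cko, against 3.77 and 2.67 CPM in control (log2 fold change 1.97, SE 0.24, edgeR adjusted p = 0.0238). Like Myod1, Cdh15 was higher in cko 1 than in cko 2. The stem cell factor Pax7 had 39 and 3 counts in cko, against 1 and 2 in control, and did not pass the filter. It was chosen for mention after its values were seen, because nearly all of its reads came from cko 1. Itga7 (laminin receptor subunit) had 195 and 168 CPM in cko, against 187 and 146 CPM in control, and Megf10 had 10.9 and 8.49 CPM in cko, against 8.79 and 11.6 CPM in control.

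Energy metabolism genes gave 1 call among 8 tested, on a gene that had passed the filter through cko alone. Cox6a2, the heart and muscle form of a cytochrome c oxidase subunit, had 29 and 36 counts in cko, against 4 and 4 in control (log2 fold change 2.99, SE 0.51, edgeR adjusted p = 0.0474). Eno3 (muscle enolase) had 4.33 and 4.80 CPM in cko, against 3.59 and 2.70 CPM in control, and Fabp3 (a fatty acid binding protein) had 4.20 and 4.98 CPM in cko, against 3.02 and 2.20 CPM in control; neither passed. The remaining lists gave no edgeR call, while DESeq2 called 0, 1 and 2 genes higher in the excitation-contraction, junction and myoblast lists. Over all 16436 tested genes, 1210 were higher and 1021 lower at an unadjusted edgeR p under 0.05. Of 14 tested genes of the excitation-contraction and membrane list, 4 were higher and 1 lower at that cut. Of the 14, 3 had passed the filter through the cko libraries alone. The most abundant genes of this list were Srl, with 21.5 and 24.8 CPM in cko, against 17.7 and 18.5 CPM in control, and Cacnb1, with 20.3 and 19.6 CPM in cko, against 23.1 and 20.2 CPM in control. Of 4 tested neuromuscular junction genes, 2 were higher at an unadjusted p under 0.05. There Dok7, an activator of MuSK, had 1.82 and 2.75 CPM in cko, against 0.770 and 0.447 CPM in control, and Lrp4, the agrin receptor, had 8.97 and 7.01 CPM in cko, against 7.82 and 8.22 CPM in control. Of 8 tested myoblast differentiation and fusion genes, 2 were higher and 1 lower at an unadjusted p under 0.05, and 1 of the 8 had passed the filter through cko alone. Mef2c, also a neuronal factor, had 33.9 and 43.8 CPM in cko, against 25.8 and 26.6 CPM in control, and the cell cycle inhibitor Cdkn1a had 12.0 and 15.7 CPM in cko, against 18.1 and 23.1 CPM in control.

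Markers of 11 other cell types that the preparation could hold were set beside the muscle genes. Cardiac markers were near 0 or level: their sum was 2.35 and 2.13 CPM in cko, against 2.55 and 2.29 CPM in control, none of 3 tested was called, Nppb and Tbx5 had 0 counts in all libraries and Myl7 had 1 count in all. The most abundant were Mybpc3, at 1.30 and 1.30 CPM in cko, against 1.70 and 1.06 CPM in control, and Tnni3, at 0.545 and 0.455 CPM in cko, against 0.535 and 0.713 CPM in control. Smooth muscle and mural markers summed to 160 and 217 CPM in cko, against 164 and 153 CPM in control, with none of 9 called. Rgs5 made up most of this sum, at 107 and 151 CPM in cko, against 110 and 100.4 CPM in control, followed by Notch3, at 15.6 and 17.0 CPM in cko, against 16.5 and 17.7 CPM in control. The mural sum, like the sarcomere genes, was highest in cko 2.

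Among tissues that lie next to muscle outside the brain, no marker was called higher in cko. Connective tissue fibroblast markers summed to 54.8 and 43.4 CPM in cko, against 62.5 and 47.2 CPM in control, with none of 6 called and with Col3a1 (23.6 and 18.9 CPM in cko, against 21.4 and 19.5 CPM in control) and Col1a2 (18.0 and 15.8 CPM in cko, against 22.1 and 15.5 CPM in control) most abundant. Tendon markers summed to 4.41 and 3.51 CPM in cko, against 3.39 and 3.76 CPM in control, with none of 3 called, and the defining Tnmd had 1 count in all. Within them Thbs4 had 1.96 and 1.74 CPM in cko, against 2.34 and 2.75 CPM in control, and Scx had 2.11 and 1.45 CPM in cko, against 0.822 and 0.746 CPM in control. Bone and cartilage markers summed to 13.8 and 14.9 CPM in cko, against 32.1 and 30.1 CPM in control. Both calls there were collagens that make up most of the sum and were lower in cko, where 0.773% of all tested genes were called lower. The other 2 of the 4 tested genes, Col11a2 and Cnmd, had log2 fold changes of 0.18 and 0.56 and were not called. The called ones were Col9a1 with 2.22 and 4.03 CPM in cko, against 12.4 and 12.5 CPM in control (log2 fold change -2.00, SE 0.29, edgeR adjusted p = 0.0361), and Col2a1 with 8.84 and 8.85 CPM in cko, against 15.7 and 16.1 CPM in control (log2 fold change -0.84, SE 0.13, edgeR adjusted p = 0.0380).

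Schwann cell and peripheral nerve markers summed to 29.9 and 47.9 CPM in cko, against 40.2 and 50.6 CPM in control, with none of 5 called and with Egr2 and Prx most abundant. Epidermis markers summed to 15.0 and 8.62 CPM in cko, against 13.2 and 6.89 CPM in control, with none of 5 called, most of it Krt10, then Krt1, and with Krt5 at 0 counts in all. Erythrocyte markers summed to 30.8 and 27.9 CPM in cko, against 28.0 and 20.1 CPM in control, with none of 5 called and with Hbb-bs and Hba-a1 most abundant. Adipocyte markers were near 0, at 0.610 and 0.390 CPM in cko, against 0.548 and 0.365 CPM in control, almost all of it Adipoq, while Fabp4 had 0 counts in cko and Retn had 0 in all. The groups overlapped in the sum of each of these 4 lists.

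Endothelial markers did move in the same direction as the muscle genes, summing to 285 and 285 CPM in cko, against 213 and 181 CPM in control. None of 5 was called by edgeR, although DESeq2 called 3 of them. All 5 were higher at an unadjusted edgeR p under 0.05, as were 1210 of all 16436 tested genes. Kdr was at 85.3 and 76.6 CPM in cko, against 55.3 and 45.5 CPM in control (edgeR adjusted p = 0.0558), and Cldn5 at 108 and 100.1 CPM in cko, against 85.3 and 64.7 CPM in control. Meninges and choroid plexus markers summed to 38.9 and 7.71 CPM in cko, against 25.2 and 8.88 CPM in control, with none of 7 called. Their most abundant gene Ttr had 29.9 and 0.943 CPM in cko, against 17.9 and 2.64 CPM in control, and the next, Foxc1, had 4.16 and 3.89 CPM in cko, against 3.22 and 2.68 CPM in control. The sum followed Ttr, which was high in cko 1 and control 1, whereas Foxc1 was higher in both cko libraries than in both control libraries. The muscle sum was highest in cko 2, where Ttr was lowest. Granule precursor markers summed to 3776 and 4404 CPM in cko, against 4750 and 4682 CPM in control. Of 9 tested 1 was called, lower in cko, where 0.773% of all tested genes were called lower. It was Nhlh1, with 178 and 172 CPM in cko, against 280 and 249 CPM in control (log2 fold change -0.60, SE 0.10, edgeR adjusted p = 0.0467). In this list 3 genes were lower and none higher at an unadjusted p under 0.05, where 1021 of all 16436 tested genes were lower. DESeq2 called 2 of the list lower. Both cko libraries lay below both control libraries for 4 of the 9 and above them for 3. Of all 16436 tested genes, 3478 lay below in this way and 3737 above. Among the other lists with no edgeR call, an unadjusted p under 0.05 was reached by 1 tendon gene and 1 erythrocyte gene, both higher, and by 1 epidermis gene, lower, and DESeq2 called none of them. The part that endothelial cells, cells of another tissue or the share of granule precursors have in the muscle result was not tested.

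**Figure D5:**
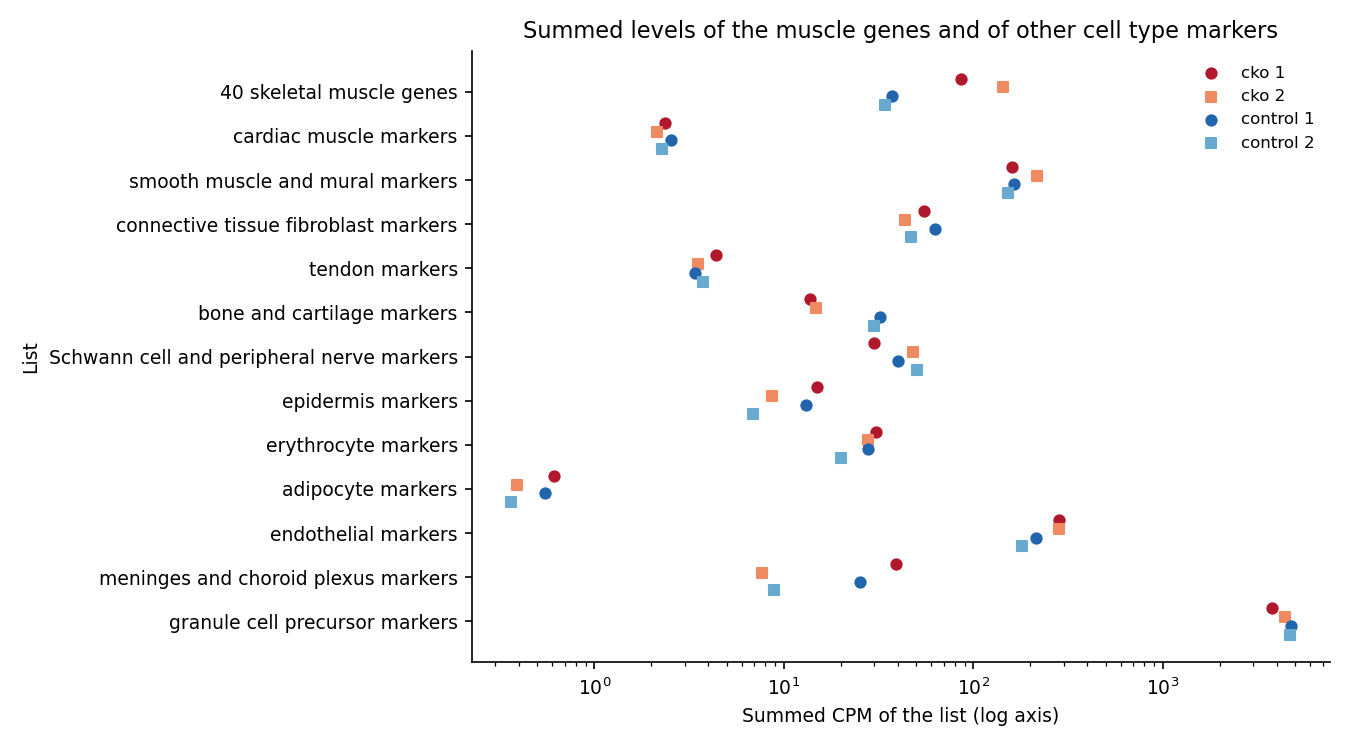
Summed CPM (logarithmic x axis) of the 40 skeletal muscle genes and of marker lists of other cell types (y axis) in each library; red and orange are cko 1 and cko 2, dark and light blue control 1 and control 2. The muscle sum is 86.1 and 143 CPM in cko, against 37.1 and 34.4 CPM in control, while the cardiac, fibroblast and tendon sums overlap between the groups. The endothelial sum is also higher in both cko libraries, and the bone and cartilage sum and the granule precursor sum are lower in both.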

How the data were processed

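The authors trimmed the reads with Trim Galore (version 0.4.1), aligned them to mm10 with TopHat2 (version 2.0.14) and counted them per Ensembl gene with HTSeq (version 0.6.1p1) in intersection-strict mode; they deposited raw counts, 1 file per library. Alignments of low quality were skipped, which can remove reads shared by paralogs. Whether reads were counted by strand is stated nowhere in the sources used here. The ATAC-Seq and ChIP-Seq samples were not analysed here. Gene names, exonic lengths and overlaps came from GENCODE, which named 37607 of 38924 IDs.

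Counts were filtered with filterByExpr, scaled with TMM and tested with edgeR's quasi-likelihood test (edgeR 4.0.16, R 4.3.3) over 16436 genes with Benjamini-Hochberg adjustment, after the code was tested on simulated data. CPM are TMM-scaled, and totals were 61836588 to 77346481 counts. With 2 libraries against 2, an exact permutation test cannot go below 0.333. Alternatives were DESeq2 (1.42.0), other scalings, no filter, a replicate block and leaving out each library. The 40 members and all lists were chosen with earlier results of these data known. Besides the members, the text names in each list the called genes (up to 4 by adjusted p) and the 2 with the highest mean CPM, with Chd7, Xist and Ddx3y; defining markers at or near 0 are named too. Myl2 and Myl3 are in both the sarcomere and the cardiac list.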

Additional observations from a re-analysis of the deposited data

How the results depend on the processing

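The direction of the muscle set held under each of the 9 alternatives, and no called member changed sign. All 9 refit the counts, or part of the counts, that chose the set for being higher in cko, so this lends the direction no support. The median log2 fold change of the 33 members lay between 1.78 and 1.92 under DESeq2, other size factors, library totals, no filter and the replicate block, and between 1.64 and 2.38 when 1 library was left out. The number of called members, 9 in the edgeR fit, was 20 of 39 with DESeq2, 14 of 39 with no filter on low counts and 14 with the replicate block, and between 1 and 17 when 1 library was left out. Of the 9, only Myog kept its call under all 9 alternatives. The 6 calls among the other muscle genes became 11 with DESeq2, 18 with no filter and 16 with the replicate block (15 higher and 1 lower), and between 0 and 11 without 1 library. Over all genes, 260 calls became 890 with DESeq2, 727 with no filter and 1010 with the replicate block, and between 83 and 602 without 1 library. Replicate numbers are shared between the groups but nothing says what they pair, and same-numbered libraries deviated together only weakly (correlation 0.187). Of 297 values for single members under the alternatives, 251 stayed within 1 standard error. Actn3, Neb, Cacna1s and Musk, 4 uncalled members, fell below 0 when 1 library was left out. Low control counts limit the fold changes of members such as Ckm, Atp2a1, Mybph and Tnnc2. The cause of these shifts was not tested.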
